A study of Mus musculus with 6 samples.

Results

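The laminin genes Lama1, Lama2, Lama3, Lama4, Lama5, Lamb1, Lamb3 and Lamc1 were examined in a list of genomic regions from an ATAC-seq study, an assay in which a transposase cuts open chromatin. These 8 genes were taken by name out of 21887 protein-coding genes. A listed region was counted for a gene when its centre (the midpoint of its first and last base) lay inside the gene's span or within 100 kb of it. This rule picked out 17 of the 6502 regions in the list, and no region was counted for more than 1 of the 8 genes.

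The study set 3 libraries from inflamed mouse prostates against 3 from naive ones. Inflammation was raised in POET3 mice, which express ovalbumin in the prostate, by transferring activated splenocytes of OT-1 mice, and the prostates were taken 7 days later. The promoter that drives the transgene, the age of the mice and whether animals were pooled are not given in the sources used here. The inflamed libraries carry the genotype POET3 and the naive ones WT in the labels, while the extraction protocol names POET3 mice for both, so genotype and inflammation cannot be told apart. All 6 libraries came from freshly sorted cells negative for CD45 and CD31 and positive for Sca-1 and CD49f, called basal stem cells by the submitters.

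The file used here gives the chromosome, start and end of each region on build mm10, in 1 list for the series as a whole. It was read as a list of regions that differ between inflamed and naive cells, because of its name and because edgeR, a tool for differential tests, is among the tools named by the submitters. It carries no signal, no direction and no value per library, so nothing is said of which group had a region more open, no error between replicates can be given, and the depth is unknown. No test was made, and counts of genes with a region are set beside the share of protein-coding genes with one. The regions have fixed widths of 0.143 kb (3210 regions, called narrow below) or 0.451 kb (3291, called wide), apart from a single region of 0.235 kb. What the widths stand for is not given in the sources used here. The sorted cell type could not be checked, since a region list holds no levels. A region lay within 100 kb of 4 of the 5 basal epithelial markers looked up, 0 of 2 luminal, 1 of 2 leukocyte, 2 of 2 endothelial and 1 of 2 fibroblast or muscle markers. Among all protein-coding genes 42.7% had a region that near, so counts over so few markers point to no cell type.

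Laminins are secreted proteins built from an alpha, a beta and a gamma chain, and their polymers form the first sheet of a basement membrane, the thin matrix on which basal epithelial cells sit. The alpha chain carries the main binding sites for cell receptors, among them integrins with the alpha-6 subunit, which is the CD49f antigen of the sort. In the prostate, as in skin, basal cells hold on to this matrix through hemidesmosomes, whose laminin includes the products of Lama3 and Lamb3.

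RefSeq start sites and promoter sequences (250 bases before to 50 after the start, build GRCm38.p6, the assembly behind mm10) were at hand for 4 of the 8 genes, Lama2, Lama5, Lamb1 and Lamb3, the last with 2 start sites. None of the 5 promoters shared a base with a listed region, against 2.21% of the 32851 promoters in the RefSeq table (727 promoters). So few promoters, of which the 2 of Lamb3 share bases, cannot show a difference from that share. The promoters below are shown because Lamb1 had the listed region closest to a start site among these genes, because Lama2 had the only region upstream of such a site whose nearest protein-coding gene was the laminin gene itself, and because a region in the Lamb3 window covered the start of the neighbouring gene G0s2. Capitals mark motif matches in Lama2 and Lamb1, and in G0s2 the 256 bases covered by the listed region. Each reads from upstream to downstream on the gene's own strand, which is minus for Lama2 at chr10:27616893-27617192, plus for Lamb1 at chr12:31265043-31265342 and minus for G0s2 at chr1:193273139-193273438.
Lama2: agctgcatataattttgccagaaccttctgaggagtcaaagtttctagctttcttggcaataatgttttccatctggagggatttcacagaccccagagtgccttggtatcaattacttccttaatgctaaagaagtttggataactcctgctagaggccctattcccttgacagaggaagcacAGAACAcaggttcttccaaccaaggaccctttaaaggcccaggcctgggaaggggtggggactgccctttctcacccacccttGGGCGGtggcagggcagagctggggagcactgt
Lamb1: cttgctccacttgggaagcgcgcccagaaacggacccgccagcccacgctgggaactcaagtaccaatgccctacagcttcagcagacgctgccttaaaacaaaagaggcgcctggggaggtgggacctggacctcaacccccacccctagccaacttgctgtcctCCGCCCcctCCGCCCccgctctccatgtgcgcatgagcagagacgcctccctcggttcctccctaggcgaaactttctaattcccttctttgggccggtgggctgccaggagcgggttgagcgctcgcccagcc
G0s2: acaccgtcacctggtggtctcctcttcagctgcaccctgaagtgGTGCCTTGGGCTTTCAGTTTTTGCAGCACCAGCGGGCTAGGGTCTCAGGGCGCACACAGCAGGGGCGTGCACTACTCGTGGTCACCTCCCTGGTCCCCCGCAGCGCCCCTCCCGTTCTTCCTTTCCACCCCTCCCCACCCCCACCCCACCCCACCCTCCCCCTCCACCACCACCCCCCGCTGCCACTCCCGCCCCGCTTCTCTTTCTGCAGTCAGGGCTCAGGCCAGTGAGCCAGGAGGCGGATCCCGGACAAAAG

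The motifs searched, on both strands, were AP-1 (TGANTCA), NF-kB (a consensus of 10 letters), the androgen receptor (AGAACA, 1 arm of its element), TEAD (GGAATG), Sp1 (GGGCGG) and the TATA box (TATAAA). The Lama2 promoter held the androgen receptor motif, starting 66 bases before the start site, and an Sp1 match after it. That motif occurs in 19.0% of all promoters in the table and the Sp1 motif in 35.7%. The Lamb1 promoter held 2 Sp1 matches on the reverse strand, written CCGCCC above, which began 84 and 75 bases before the start. The Lama5 promoter held 4 Sp1 matches. Of the Lamb3 promoters, the one further downstream held an androgen receptor match at its start and a TEAD match, a motif in 14.7% of promoters, and the other held no match to any of the 6 motifs. No AP-1, NF-kB or TATA box match was found in any of these 5 windows, against 7.81%, 0.411% and 13.6% of all promoters. Such a small number of windows cannot show a difference from these shares. A match is a run of letters and was not shown to be a bound site.

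All 8 genes had at least 1 region in their windows, where 42.7% of protein-coding genes had one. Lama1 and Lama4 had 3 each, Lama2, Lama3, Lama5, Lamb1 and Lamb3 had 2 each, and Lamc1 had 1. The median was 2 for the laminin genes and 0 for all protein-coding genes, of which 17.9% had 2 or more regions and 7.47% had 3 or more. All 8 also had a region within 50 kb, against 29.7% of protein-coding genes, and 7 within 10 kb, all but Lamb3, against 15.2%. In 6 of these 7 the region lay inside the gene, and at Lama5 it lay outside. A narrow region lay in the window of 5 of the 8 genes, against 29.0%, and a wide region in that of 5, against 19.7%. The shares for 50 kb, 10 kb and each width were not split by gene span. The genes were proposed for study with results of these data known, so the count of 8 is a description and no support for a link with laminins.

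Laminin genes are long, and a longer gene has a wider window. Their median span was 119.7 kb, against 17.17 kb for all protein-coding genes. Of genes with spans of 100 to 200 kb, the class of Lama1, Lama4 and Lamc1, 60.2% had a region in the window. The share was 67.6% above 200 kb (Lama2 and Lama3), 53.3% from 50 to 100 kb (Lamb1) and 38.2% under 50 kb (Lama5 and Lamb3). Per 100 kb of window, pooled over genes, the laminin genes had 0.560 regions and all protein-coding genes 0.293. Among the laminin genes the density ran from 0.239 at Lama2 to 0.922 at Lama1.

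**Figure D1:**
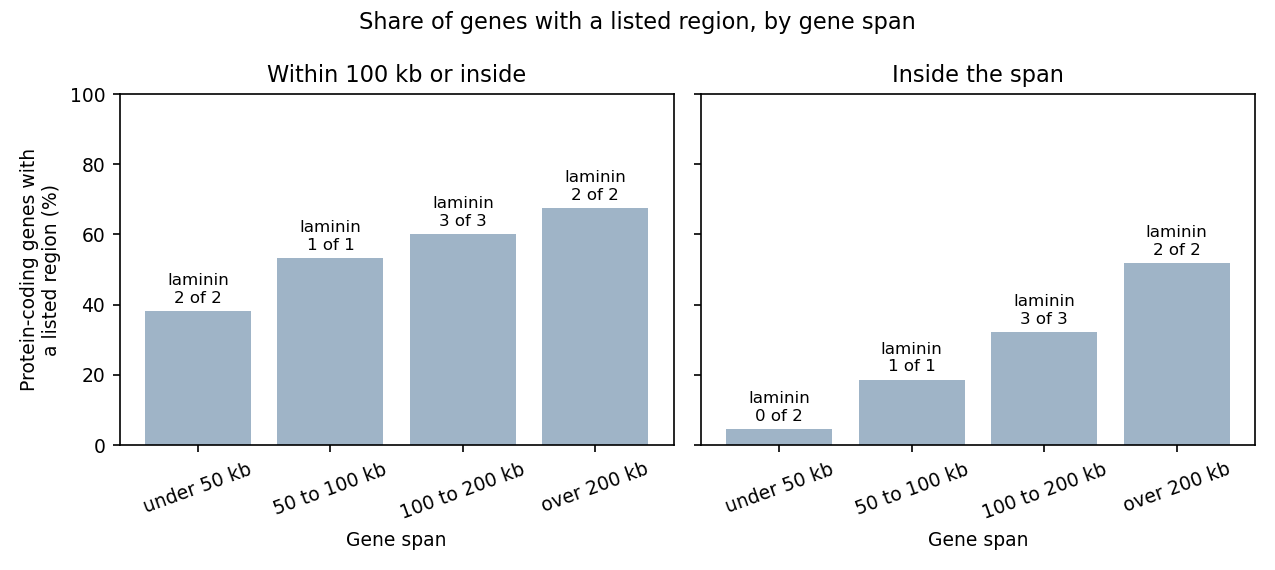
Bars give the share of protein-coding genes (%) with at least 1 listed region in the span or within 100 kb (left) or inside the span (right), in 4 classes of gene span. Numbers above the bars count the laminin genes of that class with a region. The share rises with span to 67.6% in the left panel and 51.9% in the right, and the laminin genes without an inside region are the 2 shortest.

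Inside the gene spans lay 8 of the 17 regions, in 6 genes. Lama1 and Lama4 held 2 each, and Lama2, Lama3, Lamb1 and Lamc1 held 1 each, while Lama5 and Lamb3 held none. Over all protein-coding genes 10.2% held a region inside, and in the classes of the 6 genes the share was 18.7% (50 to 100 kb), 32.2% (100 to 200 kb) and 51.9% (over 200 kb). It was 4.6% for genes under 50 kb, the class of Lama5 and Lamb3. The table of genes gives spans without exons, so exons and introns were not told apart. No region was centred within 1 kb of either end of the 8 genes, and 2 were within 10 kb of an end, at Lamb1 and Lama5. The share of all listed regions that close to a gene end was not worked out here. These 2 counts are therefore description only.

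**Figure D2:**
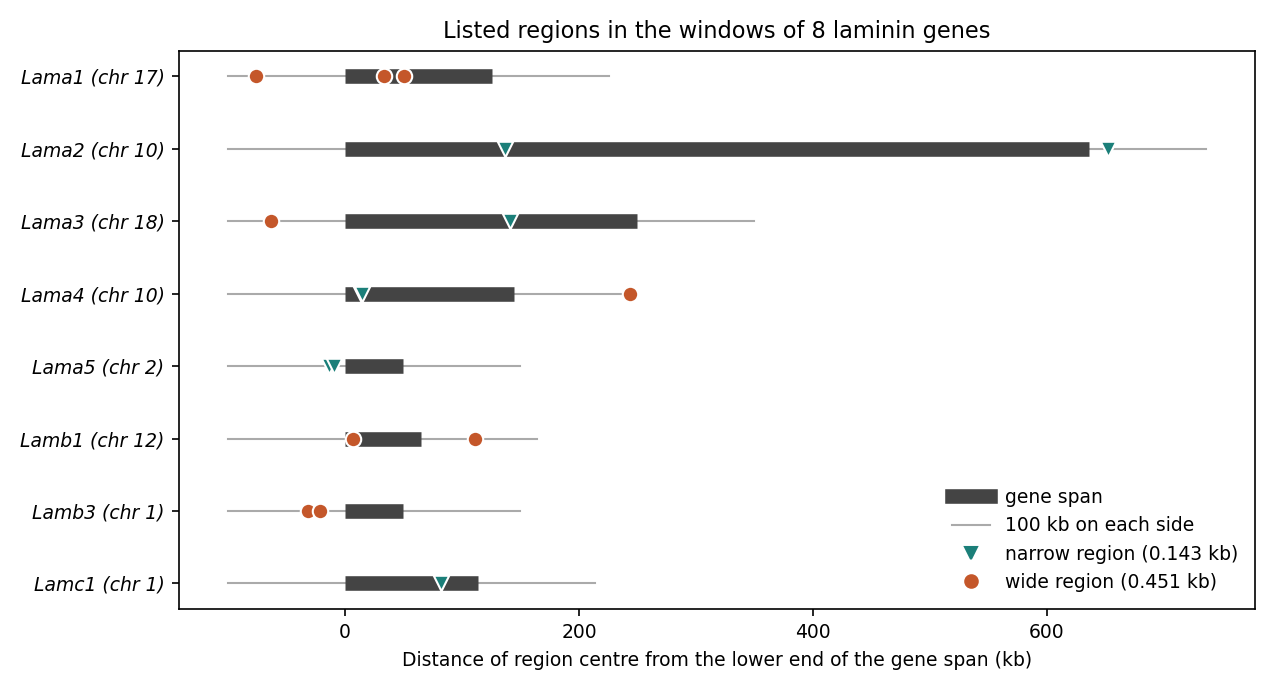
Position of each listed region by the distance of its centre from the lower end of the gene span (kb). Thick bars are gene spans, thin lines the 100 kb on each side, triangles narrow (0.143 kb) and circles wide (0.451 kb) regions. The 2 triangles inside Lama4 overlap because their centres are 0.577 kb apart, and Lama5 and Lamb3 have regions on the lower side only.

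Among the alpha chains, Lama1 encodes alpha-1, a chain of early embryonic and some reproductive and renal basement membranes. It occupies 67697127 to 67822645 on chromosome 17 (NCBI gene 16772). Both regions inside it were wide ones, at 67730387 to 67730837 and at 67747532 to 67747982. Their centres were 17.1 kb apart, and lay at 26.7% and 40.3% of the span from its lower end. The third region, also wide, was 76.1 kb below the span, at 67620850 to 67621300, and closer to Lrrc30, from which it was 9.89 kb away. As many regions or more were found for 16.0% of the genes of its span class.

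Lama2 encodes alpha-2, the chain of muscle and peripheral nerve basement membranes, whose loss causes muscular dystrophy in mice. At 635.9 kb (chromosome 10, 26981285 to 27617191, NCBI gene 16773) it is the longest of the 8 genes, and it held a single narrow region inside, at 27117922 to 27118064. That region was 499 kb downstream of the start site. The other narrow region, at 27633314 to 27633456, lay 16.4 kb upstream of the start site, and Lama2 was its nearest protein-coding gene. Lama2 thus had 0.157 regions per 100 kb of span, the lowest of the 6 genes with a region inside. All protein-coding genes pooled had 0.299, and those above 200 kb, the class of Lama2, had 0.247.

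Lama3 encodes alpha-3, the alpha chain of the hemidesmosomal laminin. It spans 12333417 to 12583013 on chromosome 18 (NCBI gene 16774). A narrow region lay at 56.5% of the span from the lower end, 109 kb from the nearer end, at 12474295 to 12474437. A wide region at 12269969 to 12270419 was 63.2 kb below the span and lay inside Ankrd29. Lama3 and Lama4 were the 2 genes with both widths in their windows.

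Lama4 encodes alpha-4, typical of vessel walls and of mesenchymal cells. It lies on the same chromosome as Lama2, at 38965515 to 39110188 on chromosome 10 (NCBI gene 16775). It held the closest pair, with narrow regions at 38979039 to 38979181 and at 38979616 to 38979758, whose centres were 577 bases apart and 13.6 and 14.2 kb from the lower end of the gene. The third region in its window, a wide one at 39208958 to 39209408, was 99.0 kb above the span, just inside the 100 kb limit. Its nearest protein-coding gene was Ccn6, 34.8 kb away, so 2 of the 3 regions of Lama4 were closest to Lama4.

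Lama5 encodes alpha-5, a widespread chain of adult epithelial and vascular basement membranes. It spans 180176373 to 180225904 on chromosome 2 (NCBI gene 16776), on the minus strand. Both of its regions were narrow and lay beyond the downstream end of the gene, 9.42 kb (180166885 to 180167027) and 13.8 kb (180162478 to 180162620) outside the span. They were 58.9 and 63.3 kb from the Lama5 start site. The further region lay inside Osbpl2, an oxysterol-binding protein gene, 0.133 kb from the end opposite its RefSeq start site, and Osbpl2 was also the nearest protein-coding gene of the other. The Lama5 window held 8 other protein-coding genes, the most of any of the 8 windows.

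Of the beta chains, Lamb1 encodes beta-1, the common partner of several alpha chains. It occupies 31265146 to 31329644 on chromosome 12 (NCBI gene 16777). Its wide region at 31271289 to 31271739 was centred 6.22 kb downstream of the start site whose promoter is printed above, at 9.87% of the span. This was the shortest distance between a listed region and a start site for the 4 genes with one. A further wide region, at 31376350 to 31376800, was 46.9 kb past the gene and closer to Dld, which encodes a subunit of mitochondrial dehydrogenase complexes. The Lamb1 window held 1 other protein-coding gene.

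Lamb3 encodes beta-3, the beta chain of the hemidesmosomal laminin. It spans 193294353 to 193343878 on chromosome 1 (NCBI gene 16780), on the plus strand, and both regions in its window were wide ones and upstream. The span begins upstream of both Lamb3 start sites at hand. The nearer region, at 193272944 to 193273394, was 21.2 kb outside the span and 28.8 kb from the upstream of the 2 Lamb3 start sites. It covered the start of G0s2, an inhibitor of the lipase that breaks down stored fat, and was centred 0.019 kb inside that gene. The other, at 193262029 to 193262479, was 39.7 kb upstream of the same Lamb3 start site, inside Hsd11b1, which encodes an enzyme that regenerates active glucocorticoid. The centres of the regions were 10.9 kb apart, and neither region had Lamb3 as its nearest gene.

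Lamc1 encodes gamma-1, the gamma chain of most laminins. It spans 153218922 to 153332786 on chromosome 1 (NCBI gene 226519). It was the gene with the fewest regions, a single narrow region at 153300518 to 153300660, inside the span and 32.2 kb from its upper end. The next listed region was 133 kb outside the gene. Of the genes in its span class, 60.2% had as many regions or more.

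The alpha chain genes together had 12 regions in 5 windows, the beta chain genes 4 in 2 and the gamma chain gene 1. By width, 8 of the 17 regions (47.1%) were narrow and 9 (52.9%) were wide, and in the list as a whole 49.4% and 50.6%. Exact 95% binomial intervals for the 17 regions, which cover counting error only, were 23.0 to 72.2% for the narrow share and 27.8 to 77.0% for the wide share. The shares of the whole list lie within them. Such intervals treat the regions as independent, although the narrow pair in Lama4 was 577 bases apart. Inside the genes there were 5 narrow regions and 3 wide ones, and outside them 3 and 6. Of the 7 genes with more than 1 region, 5 had a single width, narrow at Lama2 and Lama5 and wide at Lama1, Lamb1 and Lamb3. Among all protein-coding genes with more than 1 region in the window this held for 66.4% (2596 of 3910), so the laminin share of 71.4% was close to that of genes in general.

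The nearest protein-coding gene was the laminin gene for 9 of the 17 regions, the 8 inside and the one upstream of Lama2. For the 8 inside this follows from the rule, unless a shorter protein-coding gene had also enclosed the centre. Of the other 8, 4 lay inside another protein-coding gene (Ankrd29, Osbpl2, Hsd11b1 and G0s2). The remaining 4 lay outside protein-coding genes, nearest to Lrrc30, Ccn6, Osbpl2 and Dld. In all, 12 of the 17 regions (70.6%, exact 95% binomial interval 44.0 to 89.7) lay inside a protein-coding gene, as did 47.6% of the whole list, but the windows include the laminin gene spans and so take in such regions by construction. By nearest gene alone, 6 of the 8 laminin genes were given a region, without Lama5 and Lamb3, against 16.9% of protein-coding genes. That share was not split by gene span, and the median span was 119.7 kb for the laminin genes and 17.17 kb for all protein-coding genes. Nothing in the list ties a region to the gene it acts on.

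Other genes of the basement membrane were looked up in the same way. Lamb2, for the laminin chain beta-2, had a narrow region 17.4 kb outside the gene, and Lamc3, for gamma-3, had none within 100 kb, its nearest being 445 kb away. Counting these with the 8 genes above, 9 of 10 laminin genes looked up had a region in the window and 6 of 10 inside the gene. Among all protein-coding genes the shares were 42.7% and 10.2%, and they were higher for long genes. The 8 were chosen with results known, and of the 2 added here 1 had a region in the window and 0 inside. Of the hemidesmosomal laminin genes described here, Lama3 had a region inside, and Lamb3 had regions outside alone.

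In the list of 30 other basement membrane genes, 16 (53.3%) had a region in the window and 8 (26.7%) inside the gene, again beside 42.7% and 10.2% of protein-coding genes. The network and linker genes, with spans from 32.24 to 308.7 kb, had a region in the window in 9 of 12 cases. Among protein-coding genes the window share was 38.2% under 50 kb, 53.3% from 50 to 100 kb, 60.2% from 100 to 200 kb and 67.6% above. The inside shares were 4.6%, 18.7%, 32.2% and 51.9% in the same order. Nid1, which encodes nidogen-1, the link between laminin and collagen IV, had 4 regions, with 2 narrow ones inside the gene. The collagen IV genes Col4a1 to Col4a6 each had at least 1, with 3 wide ones inside Col4a4 and 3 inside Col4a6. These genes lie in adjacent pairs and share regions, so their 16 counts came from 11 distinct regions. Ntn4, whose product netrin-4 binds laminin and disrupts its polymers, had a wide region inside, 2.25 kb from a gene end. Nid2, Hspg2 and Col18a1, named after their positions were seen, had none within 100 kb.

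**Figure D3:**
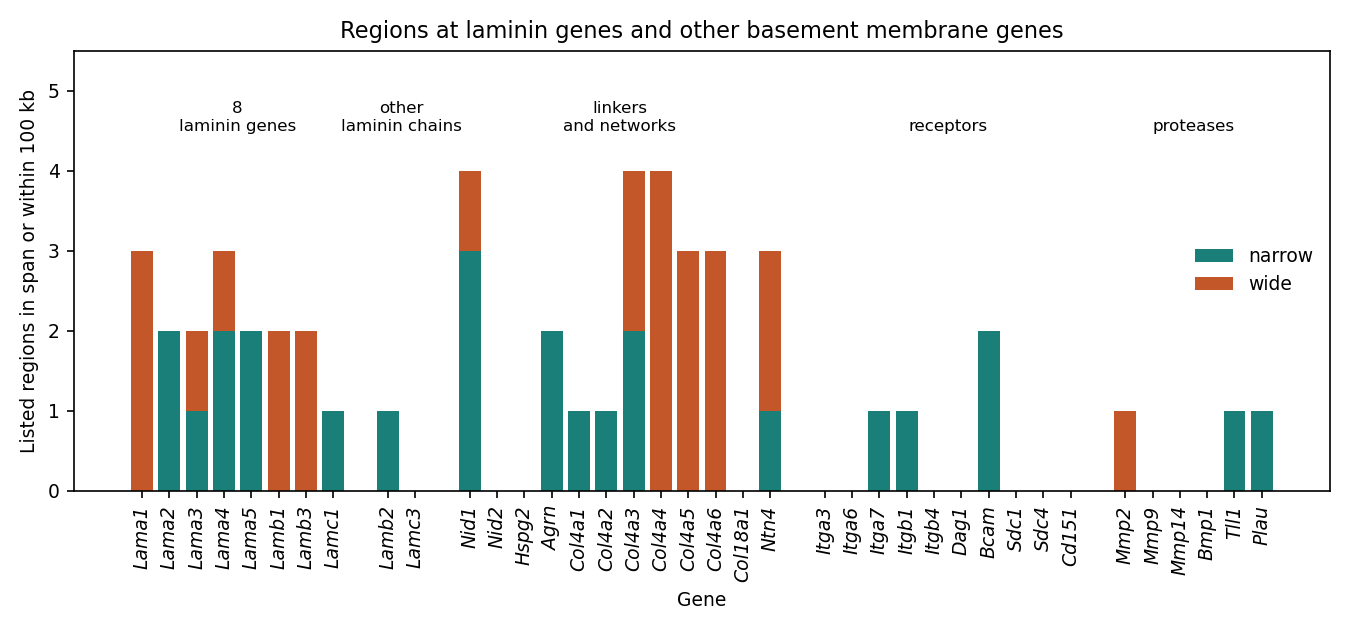
Stacked bars give the number of listed regions in the span or within 100 kb of each gene, by width, for the 8 laminin genes and 30 other basement membrane genes. Col4a4 stands at 4 wide regions, and 7 of the 10 genes in the receptor group have no bar.

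Genes for laminin receptors, or for proteins that act with them, are called receptor genes here. Of these, 3 of 10 had a region in the window and none inside the gene, against 42.7% and 10.2% of protein-coding genes. The 3, named after their positions were seen, were Itga7, Itgb1 and Bcam, with narrow regions alone, the nearest being 18.8 kb outside Itgb1, the gene for the beta-1 integrin subunit. Itga6, which encodes the CD49f antigen used in the sort, had its nearest region 180.0 kb away, and Itgb4, its partner in hemidesmosomes, 105 kb away. Among proteases that cut laminin or its partners, 3 of 6 had a region. Mmp2, for a gelatinase, held a wide region 5.85 kb inside a gene end, Tll1, for a tolloid protease, held a narrow region, and Plau, for urokinase, had a narrow region 7.29 kb outside. Mmp9, Mmp14 and Bmp1 had none. The shares of the receptor and protease genes, 30.0% and 50.0%, lie on either side of the 42.7% of protein-coding genes. Most of the receptor genes span under 50 kb, a class in which 38.2% of protein-coding genes had a region in the window and 4.6% inside.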

How the data were processed

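ATAC-seq was run on 3 inflamed and 3 naive libraries. Per the submitters' processing notes, the authors' tools included edgeR, HOMER 4.8, SAMtools and BWA 0.7.17-r1188, with mm10 as the build. The name of the list carries abbreviated tags for some steps, which the sources used here do not explain. Beyond these tags, the order of the tools, their thresholds and any pooling of libraries before region calling are not given. The deposited file holds coordinates and no measurement, in 3 columns for chromosome, start (counted from 0, printed from 1) and end. A threshold applied before deposit would fix which regions can appear.

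Genes came from a RefSeq table of GRCm38.p6 (spans on chromosomes 1 to 19, X and Y), in which all 8 laminin genes and all 30 other basement membrane genes matched by symbol. Regions were placed by centre. The nearest gene is the shortest protein-coding gene enclosing the centre, or else the one with the nearest end. Strand and start sites came from RefSeq promoters of GRCm38.p6. Counts used Python 3.11.15, pandas 2.3.3 and scipy 1.17.1 (exact Clopper-Pearson intervals), and the window code was tested on simulated data. Alternatives were windows of 50, 10 and 0 kb, any overlap, each width alone, regions within 1 kb merged, and nearest gene alone.

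The members and lists were chosen with earlier results of these data known. Named were all 8 genes with the nearest genes of their regions, and other basement membrane genes with a region inside or within 10 kb of an end. Any other basement membrane gene, Lamb2, Lamc3, Itga6, Itgb4, Mmp9, Mmp14 and Bmp1 among them, was named after its position was seen, as was Qars. Sequences of the regions themselves were not used here. A further gene of the list is not reported here and enters none of the list's counts.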

Additional observations from a re-analysis of the deposited data

How the results depend on the processing

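No paired analysis was possible because each region has coordinates and nothing per library, and for the same reason no library could be left out. The 17 laminin regions became 9 within 10 kb, 8 inside the spans, 8 with narrow and 9 with wide regions alone, and 9 by nearest gene alone. The number of laminin genes with a region, 8, was 5 with either width alone, and 6 to 8 under the other settings. The other basement membrane genes with a region, 16 of 30, were 10 within 10 kb, 8 inside the span, 7 with wide regions alone and 10 by nearest gene. The share of protein-coding genes with a region, 42.7%, was 29.7% within 50 kb, 15.2% within 10 kb, 10.2% inside the span, 29.0% and 19.7% with narrow and wide regions alone and 16.9% by nearest gene. Each of these settings counts fewer regions or a smaller window by construction. In the other 16 of 33 alternatives counts stayed within 1.5 times the value in the report and shares within its interval; merging regions within 1 kb joined the Lama4 pair, which left 16 regions, and letting genes of all types compete left 8 of 9 regions nearest to a laminin gene. Depth and direction limit every statement here, since the list holds neither.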

Other observations

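Some regions in the laminin windows lay in genes that are not protein-coding. The region upstream of Lama2 was inside the long non-coding RNA gene Gm30165, both regions downstream of Lama5 were inside Gm29886, and the region below Lama1 was inside Gm36201, all 3 of the same kind. The outer Lama4 region was 9.59 kb from the pseudogene Gm6477. Only a single gene of any type was recorded per region, so further non-coding genes around a region were not counted. The share of all listed regions inside non-coding genes was not worked out here. These positions are therefore description only.

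The only region in the Lamb2 window lay across the promoter of another gene. It was a narrow region, at 108507829 to 108507971 on chromosome 9, and centred 0.105 kb upstream of the RefSeq start site of Qars, which encodes glutaminyl-tRNA synthetase. The Qars promoter held an AP-1 match, TGACTCA, starting 82 bases before the start site, and the motif occurs in 7.81% of all promoters in the RefSeq table. It also held an Sp1 match, a motif in 35.7% of them. The G0s2 promoter, likewise covered by a region, held no AP-1 match. The Osbpl2 promoter held the AP-1 motif, with its start site 43.2 kb from the nearest listed region.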
